A study of Rattus norvegicus with 8 samples.

Results

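The synapsins and the membrane proteins of the synaptic vesicle were followed as RNA in the somata and the processes of rat hippocampal neurons. The genes were taken by symbol from a table of read counts. They are the synapsin genes Syn1, Syn2 and Syn3, the SV2 genes Sv2a, Sv2b and Sv2c, the physin genes Syp (synaptophysin) and Synpr (synaptoporin), and the gyrin genes Syngr1 and Syngr3. Of these 10 symbols, 9 were among the 28909 symbols of the table, and Sv2b was not analysed here. The 9 genes had at least 34 reads in every library, so each passed the filter on low counts in both compartments, and 14309 genes were tested in all. The neurons were primary cultures of Sprague-Dawley hippocampus on porous filters, with RNA taken apart from the top of the filter, where the cell bodies stay (somata), and from its underside, where neurites grow through (processes). Cultures received picrotoxin (PTX), a blocker of the GABA-A receptor that raises network activity, for 48 h from day in vitro 18 to 20, or the ethanol vehicle as control. There were 2 libraries of ribosome-depleted RNA for each of the 4 combinations of compartment and treatment, 8 in all. Nothing in the sources says that libraries of the same condition came from separate cultures, so p-values measure only the spread between these libraries, which may be technical. Where groups are said not to overlap, this only describes the values. With 2 libraries against 2 it happens often without any effect, and its share over all genes was not determined.

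Synapsins are phosphoproteins on the outer face of the vesicle that hold vesicles together in the reserve pool of the terminal, and phosphorylation by CaM kinases, protein kinase A and MAP kinases loosens that hold. SV2 proteins are glycoproteins of the vesicle membrane that resemble transporters, and SV2A is the binding site of the antiseizure drug levetiracetam. Synaptophysin and synaptoporin, and the synaptogyrins, are small proteins that cross the membrane several times and are standard markers of presynaptic terminals. The proteins work in axon terminals, while their mRNAs can lie in the cell body or in the neurites. The lower side of the filter holds dendrites as well as axons, so an RNA found there is not placed in the axon by these data.

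The counts summed to between 12290890 and 14520831 per library in somata and to between 15120334 and 18455662 in processes. Transcripts of the mitochondrial genome took 22.6% to 26.7% of the reads in somata and 68.5% to 72.5% in processes, which left 9517542 to 11227599 and 4702054 to 5491237 reads of other genes. Levels are given as CPM, counts relative to library size, after TMM scaling. This scales the libraries by a trimmed mean of their log fold changes across genes. Astrocyte markers summed to 4092 to 4482 CPM in control somata, 3170 to 4209 in PTX somata, 13330 to 14940 in control processes and 11420 to 12680 in PTX processes (8 of 8 genes detected). Neuron markers summed to 1310 to 1427, 1158 to 1268, 4815 to 5042 and 3605 to 4230 CPM in the same order (5 of 5 detected), a sum carried by the dendritic Map2. Of the 5, 2 were called higher and 2 lower in control processes, with a median log2 fold change of -0.37. The astrocyte sum was carried by Gfap, with a mean of 1684.5 CPM in control somata and 10246.6 in control processes. Of the 8 astrocyte markers, 4 were called higher and 2 lower in control processes, with a median of 0.53. Microglial markers did not exceed 2.05 CPM together in any library. The part of these cell-type differences in the compartment and PTX results was not tested. In bulk RNA, fewer cells of a type and less RNA per cell cannot be told apart.

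Promoters are shown for the 3 genes with a match, Syn1, Syn2 and Syp, with textbook activity motifs marked. The main fit called only Syn1 of these lower in PTX processes, and a fit with the replicate number as a block called all 3 and Syngr3. Syngr3 had no promoter window and was not searched. Whether a match bears on a PTX value was not tested. RefSeq promoter windows (build GRCr8, 250 bases before to 50 after the start) were found for 6 of the 9 genes, namely Syn1, Syn2, Sv2a, Sv2c, Syp and Synpr. Both strands were searched for TGACGTCA, the full cyclic AMP response element, and for GCGGGGGCG, a site of the EGR zinc finger factors. These do not overlap in letters. Capitals mark the matches in the windows of Syn1 (chrX:3725495-3725794, + strand), Syn2 (chr4:149858669-149858968, + strand) and Syp (chrX:17536400-17536699, - strand), each written 5′ to 3′ on the strand of the gene.
Syn1: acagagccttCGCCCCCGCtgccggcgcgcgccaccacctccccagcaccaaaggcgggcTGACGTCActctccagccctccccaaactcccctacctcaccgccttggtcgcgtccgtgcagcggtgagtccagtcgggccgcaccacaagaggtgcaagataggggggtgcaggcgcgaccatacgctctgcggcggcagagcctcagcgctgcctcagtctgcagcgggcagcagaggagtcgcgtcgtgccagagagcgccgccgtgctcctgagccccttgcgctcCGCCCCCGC
Syn2: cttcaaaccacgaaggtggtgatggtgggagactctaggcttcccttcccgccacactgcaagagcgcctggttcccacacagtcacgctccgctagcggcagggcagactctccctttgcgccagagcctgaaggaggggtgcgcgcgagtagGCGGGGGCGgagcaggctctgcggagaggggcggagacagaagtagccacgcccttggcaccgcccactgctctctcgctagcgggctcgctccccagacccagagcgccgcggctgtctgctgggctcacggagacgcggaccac
Syp: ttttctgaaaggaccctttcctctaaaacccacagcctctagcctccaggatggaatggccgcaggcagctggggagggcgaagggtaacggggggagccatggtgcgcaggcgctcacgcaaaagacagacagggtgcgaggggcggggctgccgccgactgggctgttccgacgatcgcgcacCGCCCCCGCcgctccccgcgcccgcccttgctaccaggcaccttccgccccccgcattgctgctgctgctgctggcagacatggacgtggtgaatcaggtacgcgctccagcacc
The Syn1 window held TGACGTCA once and GCGGGGGCG 2 times, the latter as its reverse complement. The Syn2 and Syp windows each held GCGGGGGCG 1 time, on the + strand of the gene for Syn2 and reversed for Syp. No match was found for Sv2a, Sv2c or Synpr. TGACGTCA stood in 1.83% and GCGGGGGCG in 2.73% of the 33469 promoter windows of the table, and the second EGR form, GCGTGGGCG (0.544%), and the left part of the RE1 element, TTCAGCACC (0.356%), stood in none of the 6. GCGGGGGCG holds only G and C, and the windows of Syn1, Syn2 and Syp were 71%, 67.7% and 67% G or C. Those of Sv2a, Sv2c and Synpr were 60%, 71.7% and 53.7%, and the median over all windows was 51.7%. The shares over all windows were not matched for this. A match describes letters and is not evidence of binding.

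In control cultures, the RNAs of this group were not distributed alike between somata and processes. Of the 9 genes, 1 (Syn1) was higher in processes and 4 (Sv2a, Syp, Synpr and Syngr3) were lower at an adjusted p under 0.05, in a table where 25.8% of all tested genes were called higher and 21.9% lower. The median log2 fold change of the 9 genes was -0.52, against -0.05 over all genes tested. The other 4 (Syn2, Syn3, Sv2c and Syngr1) were not called.

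Syn1, the main synapsin of central neurons, was measured at 65.7 and 61.5 CPM in the control somata libraries and at 124.6 and 86.7 CPM in the control processes libraries. Both processes libraries were above both somata libraries, and the pair in processes was further apart. The log2 fold change of processes against somata was 0.73 (standard error 0.149, edgeR quasi-likelihood test, adjusted p = 0.00232), or 1.66-fold. This rests on the scaling. When the libraries were scaled to their reads outside the mitochondrial genome, an alternative chosen after seeing the data, the difference was 0.27 (adjusted p = 0.123) while the median of all genes moved to -0.51. When they were scaled to all reads it was -1.09 with the median at -1.86. In each of these the Syn1 value lay above the median of all genes. LOC102555453, a gene annotated inside Syn1 on the opposite strand with 486 to 791 reads per library, was also higher in control processes (1.70, adjusted p = 1.84e-06), and its part in the Syn1 value was not tested.

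Syn2 and Syn3 did not share that position. Syn2 was at 61.8 and 52.6 CPM in control somata and at 70.5 and 52.1 in control processes, and Syn3, the weakly expressed synapsin, at 6.08 and 5.17 against 7.25 and 4.46. The groups overlapped for both genes. Their log2 differences were 0.10 (95% interval -0.23 to 0.43) and 0.06 (-0.52 to 0.65), and with the reads outside the mitochondrial genome as the scale they turned to -0.36 (adjusted p = 0.0496) and -0.40 (adjusted p = 0.199).

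Sv2a, Syp, Synpr and Syngr3 were each lower in processes in every library. Sv2a fell from 136.6 and 125.7 CPM in control somata to 55.0 and 44.2 in control processes, a log2 difference of -1.40 (standard error 0.162, adjusted p = 5.13e-05). Syp, the classical terminal marker, stood at 194.7 and 177.6 against 102.8 and 76.2, a difference of -1.06 (standard error 0.168, adjusted p = 0.000489). Synpr, its close relative that is prominent in hippocampal mossy fibres, stood at 27.9 and 25.0 against 11.2 and 7.05, a difference of -1.53 (standard error 0.178, adjusted p = 5.44e-05). None of these groups overlapped, and the gap between compartments was wider than the spread within either. Syngr3 stood at 38.8 and 35.6 against 17.7 and 14.6, a difference of -1.20 (standard error 0.165, adjusted p = 0.000174). All 4 kept their direction and their call under every scaling used.

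Within the gyrin and SV2 pairs the other gene had the smaller estimate, and the genes of a pair were not compared by a test. Syngr1 was at 31.3 and 30.2 CPM in control somata and at 25.3 and 22.8 in control processes, a difference of -0.35 (adjusted p = 0.0839). Sv2c was at 10.8 and 8.62 against 8.59 and 4.93, a difference of -0.52 (adjusted p = 0.318). Its 95% interval, -1.42 to 0.38, included the Sv2a estimate. The processes libraries were below the somata libraries for both, by a narrow gap for Sv2c. Syngr1 lay at the edge of the threshold, and was called with upper quartile factors (-0.56, adjusted p = 0.0115), with the reads outside the mitochondrial genome as the scale (-0.82, adjusted p = 0.001), without a count filter (0.0419), with at least 10 reads in every library (0.044), with the 4 libraries alone (0.0429) and without either PTX processes library (0.0446 and 0.0454). With the replicate number as a block, both were called lower (Syngr1 -0.36, adjusted p = 0.01, and Sv2c -0.56, adjusted p = 0.0156). The block thus called 7 genes of the group instead of 5, while over all 14309 tested genes it called 8272 instead of 6823.

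**Figure D1:**
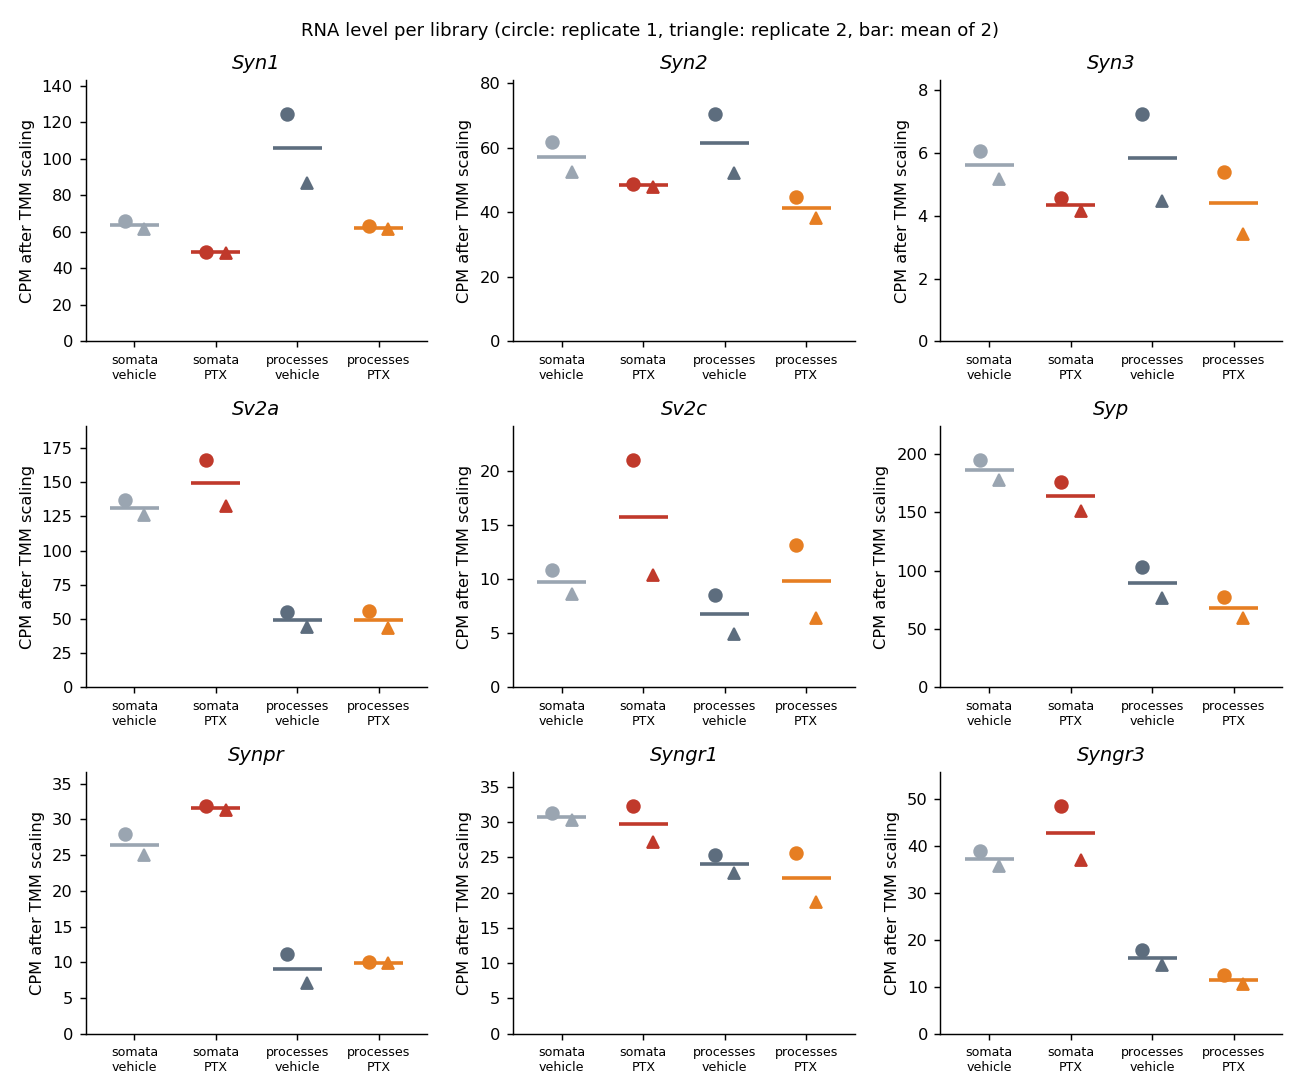
RNA level of the 9 genes in CPM after TMM scaling, 1 panel per gene with its own axis from 0. Circles are replicate 1, triangles replicate 2 and bars the mean of 2, in somata and processes of control (vehicle) and PTX cultures. Sv2a, Syp, Synpr and Syngr3 sit lower in all processes libraries, while Syn1 is highest in control processes (124.6 and 86.7 CPM).

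The same comparison in PTX cultures used 4 other libraries. There 0 of the 9 genes were called higher and 5 lower, against 25.7% higher and 24% lower over all tested genes, and the median of the 9 was -0.70 (all genes -0.05). Syn1 was at 48.9 and 48.6 CPM in PTX somata and at 63.4 and 61.2 in PTX processes, so both processes libraries were still above both somata libraries. The log2 difference of 0.35 missed the threshold (standard error 0.151, adjusted p = 0.0738) and passed it with the replicate block (0.36, adjusted p = 0.00789). With the reads outside the mitochondrial genome as the scale it was -0.10 (adjusted p = 0.556).

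Sv2a (-1.59, adjusted p = 2e-05), Syp (-1.26, adjusted p = 0.000144) and Synpr (-1.67, adjusted p = 2.44e-05) were again lower in processes. Syngr3 had the lowest value of the group, with 48.4 and 37.0 CPM in PTX somata and 12.5 and 10.6 in PTX processes (-1.89, standard error 0.170, adjusted p = 8.58e-06), or 3.71-fold lower. Syngr1 was called at -0.43 (adjusted p = 0.0396) with 32.2 and 27.2 CPM in somata against 25.6 and 18.6 in processes. That call is thin, as it was lost under DESeq2 (adjusted p = 0.0709), with only the 4 libraries compared (0.063) and on leaving out either control somata library (adjusted p = 0.0543 and 0.0561), replicate 1 of PTX somata (0.227) or replicate 2 of PTX processes (-0.22, 0.316). Syn2 (-0.22, adjusted p = 0.246), Syn3 (0.00, adjusted p = 0.995) and Sv2c (-0.70, adjusted p = 0.145) were not called. The replicate block called Sv2c lower as well (-0.68, adjusted p = 0.00133), for 7 genes in all. Over all 14309 tested genes the block called 8519 instead of 7121. With the reads outside the mitochondrial genome as the scale, Syn2 (-0.68, adjusted p = 0.00239) and Sv2c (-1.16, adjusted p = 0.0181) were both called lower, and upper quartile factors called Syn2 (-0.40, adjusted p = 0.0441).

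**Figure D2:**
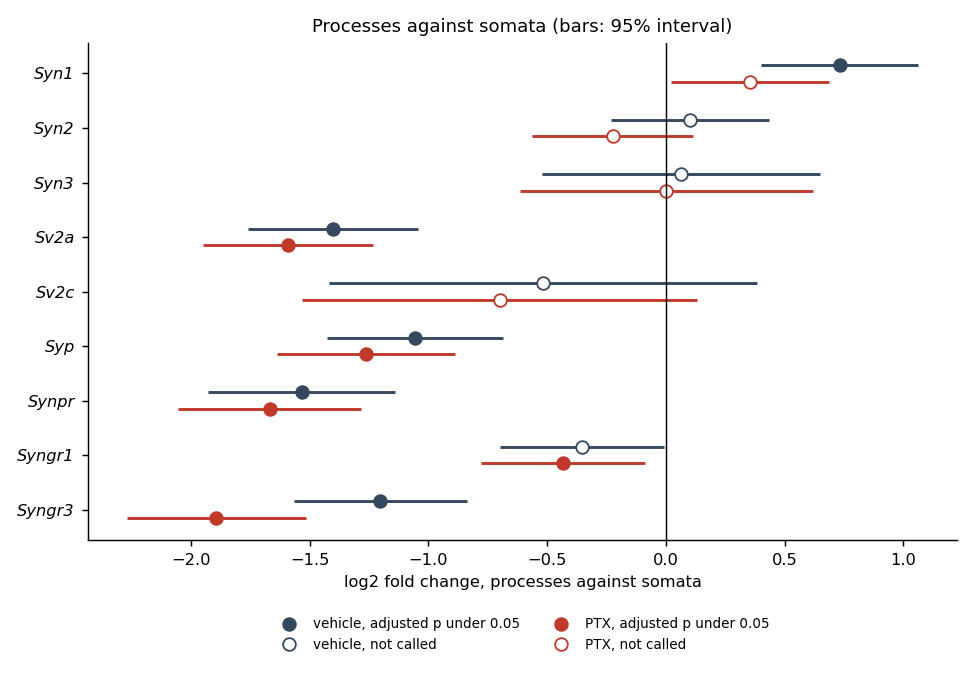
Log2 fold change of processes against somata for the 9 genes in control (vehicle) and PTX cultures. Points are the estimates, horizontal bars their 95% intervals, and filled points have an adjusted p under 0.05. Syn1 in control cultures, at 0.73, is the only filled point right of 0, and Syngr3 lies furthest left at -1.89 in PTX cultures.

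PTX lowered Syn1 RNA in the processes, and no other gene of the group passed the test there. In that comparison 0 of 9 genes were called higher and 1 lower, against 1.64% and 2.1% of all tested genes, and the median of the 9 was -0.39 (all genes -0.01). The 5 neuron markers had a median of -0.34 there, with 0 called. Excitatory neuron markers had -0.94 (5 tested, 1 called higher and 2 lower) and inhibitory ones 0.56 (7 tested, 1 higher and 0 lower). Their part in the values of the 9 was not tested. Syn1 went from 124.6 and 86.7 CPM in control processes to 63.4 and 61.2 in PTX processes. The groups did not overlap, and most of the spread lay in the control pair. The log2 fold change was -0.76 (95% interval -1.10 to -0.42, standard error 0.153, edgeR quasi-likelihood test, adjusted p = 0.0229), which is 1.70-fold lower. The call depended on single libraries. It was lost without replicate 1 of control processes (-0.48, adjusted p = 0.125), without replicate 1 of PTX processes (-0.79, 0.108), without replicate 2 of PTX processes (-0.74, 0.125) and with only the 4 processes libraries in the fit (-0.75, 0.0517). Pairing the libraries by replicate number gave a value of -0.75 (adjusted p = 5.37e-05).

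Syn2, Syp and Syngr3 missed the threshold in PTX processes and passed it with the replicate number as a block. Syn2 was at 70.5 and 52.1 CPM in control processes and at 44.6 and 38.2 after PTX, with no overlap, and its log2 fold change was -0.57 (standard error 0.157, adjusted p = 0.0793, with the replicate block -0.56 and 0.000912). It also passed under the likelihood ratio test (adjusted p = 0.0201) and DESeq2 (0.039). Syp, at 102.8 and 76.2 CPM against 77.5 and 59.1, overlapped across the groups because the replicates differed (-0.39, adjusted p = 0.284, with the block 0.0138). Syngr3 was at 17.7 and 14.6 CPM in control processes and at 12.5 and 10.6 after PTX, with no overlap (-0.49, adjusted p = 0.212, with the block -0.48 and 0.0326). The block thus called 4 genes of the group instead of 1, while over all genes it called 1601 instead of 535.

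The remaining genes gave intervals that included 0. Syn3 (34 to 65 reads per processes library) gave -0.43 (95% interval -1.08 to 0.23), and Sv2c, at 8.59 and 4.93 CPM in control processes against 13.2 and 6.43 after PTX, gave 0.52 (-0.45 to 1.49). Sv2a was at 55.0 and 44.2 CPM and at 55.6 and 43.5, a difference of -0.00 (95% interval -0.37 to 0.36). Synpr (0.12, interval -0.33 to 0.57) and Syngr1 (-0.13, interval -0.49 to 0.24) were likewise not called.

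In the somata, none of the 9 genes was called in either direction, against 2.09% of all tested genes higher and 1.5% lower, and the median of the 9 was -0.05 (all genes -0.01). By the unadjusted p 1 gene (Syn1) was under 0.05, and DESeq2 called 0 as well. Syn1 was at 65.7 and 61.5 CPM in control somata and at 48.9 and 48.6 in PTX somata. The groups did not overlap and each pair was tight, with means of 63.6 ± 2.95 and 48.7 ± 0.182 CPM (SD, n = 2). Its log2 fold change was -0.38 (standard error 0.148, adjusted p = 0.222), and with the replicate block it passed the threshold at the same size (-0.38, adjusted p = 0.0135).

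In somata the block called 2002 of all tested genes instead of 513, and the other gene of the group called by it was Sv2c. It was at 10.8 and 8.62 CPM in control somata and at 21.0 and 10.4 in PTX somata, so the groups overlapped and replicate 1 of PTX somata stood apart (585 reads against 246 in replicate 2). The log2 fold change was 0.70 (95% interval -0.06 to 1.46, adjusted p = 0.373, with the block 0.64 and 0.00296). It ranged from 0.10 to 1.11 as single libraries were left out. SV2C is the SV2 form restricted to few cell groups, and markers of inhibitory neurons summed to 240.5 to 342.4 CPM in control somata and to 418.7 to 551.4 in PTX somata (8 of 8 detected), with the GABA-synthesizing enzymes Gad1 at 0.82 (adjusted p = 0.0247) and Gad2 at 0.92 (adjusted p = 0.0328). The other tested markers of that list, Slc32a1 (-0.02), Sst (0.31), Vip (1.18), Npy (1.27) and Lhx6 (0.07), were not called, and most of the rise of the sum came from Gad1 and Gad2. Their part in the Sv2c value was not tested.

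The other PTX values in somata were small. Syn2 went from 61.8 and 52.6 CPM to 48.7 and 47.8 (-0.24, 95% interval -0.57 to 0.08) and Syp from 194.7 and 177.6 to 176.3 and 151.2 (-0.18, interval -0.55 to 0.18). Synpr was at 27.9 and 25.0 CPM and at 31.8 and 31.2 (0.25, interval -0.08 to 0.58), and Sv2a at 136.6 and 125.7 and at 166.1 and 132.3 (0.19, interval -0.15 to 0.52). Of these, Syn2, Syp and Synpr had groups that did not overlap, and no test called them with or without the block. Syn3 (-0.36, its groups also without overlap), Syngr1 (-0.05) and Syngr3 (0.20) were not called either.

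**Figure D3:**
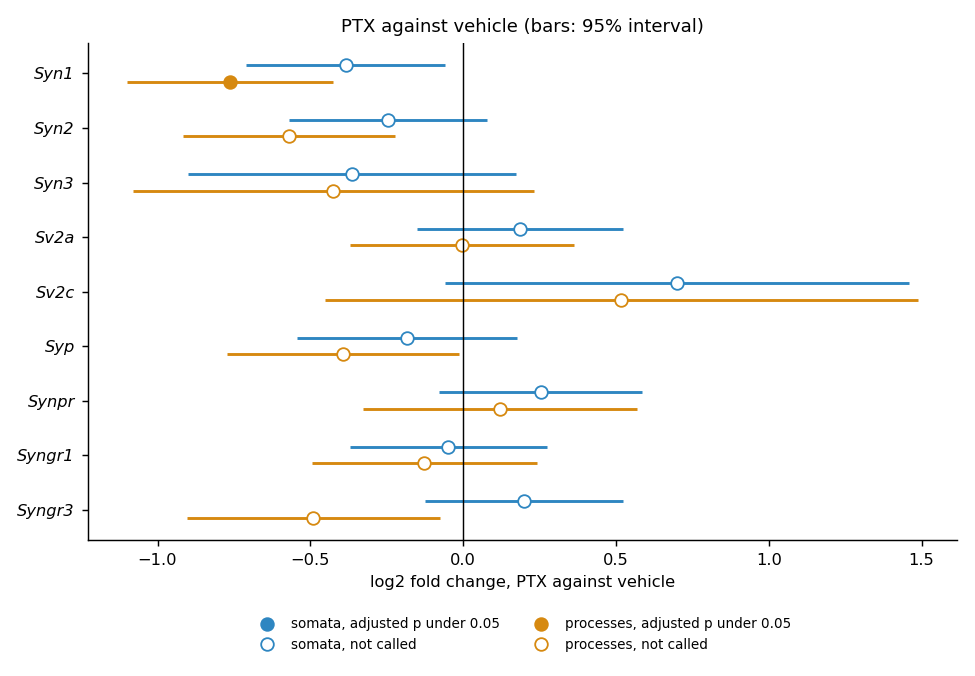
Log2 fold change of PTX against vehicle for the 9 genes in somata and in processes, with 95% intervals. The filled point, Syn1 in processes at -0.76, is the only one with an adjusted p under 0.05, and all 3 synapsins lie left of 0 in both compartments.

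Whether PTX acted differently in the 2 compartments was tested with an interaction term, the change with PTX in processes less the change in somata. No gene of the table was called (0 of 14309, a share of 0%, with 572 at an unadjusted p under 0.05), and the alternatives gave 4 genes with the likelihood ratio test, 4 with DESeq2 and 15 with the replicate block, none of them in this group. All 9 terms were negative, with a median of -0.19 (all genes -0.01), but they share the same libraries and scaling. The sign turned for Syn3, Sv2c, Syp, Synpr and Syngr1 when a library was left out. How many of all genes had a negative term was not determined. For Syn1 the term was -0.38 (95% interval -0.85 to 0.09, adjusted p = 1), so the call in processes and its absence in somata do not show that the effects differed. Syngr3 had the largest term, -0.69 (standard error 0.238, unadjusted p = 0.0149, adjusted p = 1, with the replicate block 0.149).

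The composition of the group's reads does not depend on how libraries are scaled. Syn1, Syn2 and Syn3 together took 23.3% and 22.9% of the reads of the 9 genes in control somata, 17.7% and 20.5% in PTX somata, 47.8% and 45.8% in control processes, and 36.8% and 41.0% in PTX processes. The processes libraries were above the somata libraries, and within each compartment the PTX libraries were below the control libraries. The exact 95% binomial intervals, which cover counting error only, ran from 22.6% to 24.0% in replicate 1 of control somata (3144 of 13502 reads) and from 46.2% to 49.4% in replicate 1 of control processes (1814 of 3792).

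**Figure D4:**
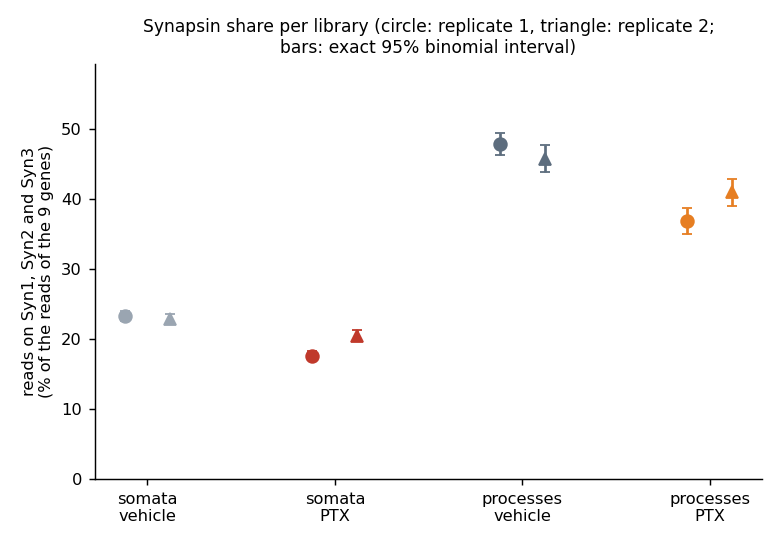
Share of the reads of the 9 genes that fell on Syn1, Syn2 and Syn3, in percent, for each of the 8 libraries, with exact 95% binomial intervals. The share is 17.7% to 23.3% in somata libraries and 36.8% to 47.8% in processes libraries, and is lower after PTX in each compartment.

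Within the families, the shares of the genes are given without a test. Syn1 made up 49.2% and 51.6% of synapsin reads in control somata and 61.6% and 60.5% in control processes, with 47.8% and 48.3% and then 55.9% and 59.5% after PTX. Syngr3 made up 55.4% and 54.1% of the gyrin reads in control somata but 41.2% and 39.0% in control processes, and after PTX 60.0% and 57.6% in somata and 32.8% and 36.2% in processes. The Syngr3 share thus lay on opposite sides of the control values in the compartments. Sv2c made up 7.35% and 6.41% of the Sv2a and Sv2c reads in control somata, 11.2% and 7.30% in PTX somata, 13.5% and 10.1% in control processes and 19.2% and 12.9% in PTX processes. The control and PTX values of Sv2c overlapped in both compartments. Synpr made up 12.5% and 12.3% of the physin reads in control somata, 15.3% and 17.1% in PTX somata, 9.79% and 8.46% in control processes and 11.4% and 14.3% in PTX processes. These shares compare reads, not molecules, since longer transcripts give more reads.

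Replicate 1 was above replicate 2 for all 9 genes in all 4 conditions, that is in 36 of 36 comparisons of CPM, while 16.7% of the tested genes were higher in replicate 1 in all 4. The ratio ran from 1.01 for Syn1 in PTX somata to 2.05 for Sv2c in PTX processes. This common offset is the variation that the replicate block takes out.

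Other genes of the vesicle are given as counts, to be read against the 25.8% of all tested genes called higher and the 21.9% called lower in control processes. With PTX the shares of all tested genes were 2.09% higher and 1.5% lower in somata, and 1.64% and 2.1% in processes. Differences between these lists were not tested. Of the 7 tested genes of the fusion core, 4 were higher in control processes, among them the vesicle SNARE Vamp2 (1.37, adjusted p = 0.000197) and the plasma membrane SNARE Stx1a (0.96, adjusted p = 0.0021). The calcium sensor Syt1 (-0.98, adjusted p = 0.000962) and Snap25 (-0.37, adjusted p = 0.0375) were lower. None of the 7 was called with PTX in either compartment, which is near the share of all genes. The median of the list was 0.73 in control cultures. Of the 7 vesicular transporters, 5 were lower in control processes and 0 higher, with Slc17a6, the second vesicular glutamate transporter, at -1.66 (adjusted p = 0.000982) and the zinc transporter Slc30a3 at -0.95 (adjusted p = 0.0138). PTX raised Slc6a17, a vesicular amino acid transporter, in somata (0.98, adjusted p = 0.0112) and Slc17a7, the first vesicular glutamate transporter, in processes (0.73, adjusted p = 0.0172). Of the 16 subunits and partners of the vacuolar proton pump that fills vesicles, 2 were higher and 9 lower, Atp6ap2 at -1.35 (adjusted p = 8.68e-06). With PTX the subunit Atp6v1g2 fell in processes (-0.59, adjusted p = 0.0289).

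Of the 13 tested Rab and chaperone genes that attach to vesicles, 3 were higher and 3 lower in control processes, shares near those of all genes. The chaperone Dnajc5 (cysteine string protein) was at 1.75 (adjusted p = 6.2e-05) and the vesicle GTPase Rab3a at -0.82 (adjusted p = 0.000505). PTX raised Rab27b (1.70, adjusted p = 0.00445) and its effector Rph3a (1.12, adjusted p = 0.00302) in processes and lowered Rab3d both there (-0.93, adjusted p = 0.0252) and in somata (-0.78, adjusted p = 0.0221). The other genes of the physin, gyrin and SV2-like families counted 3 tested, of which Syngr2 (-1.12, adjusted p = 0.0237) and Sypl1 (-0.95, adjusted p = 0.00621) were lower in control processes and none was called with PTX.

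Of the 14 genes of kinases that phosphorylate synapsins, counting the Cdk5 activator Cdk5r1, 3 were higher and 1 lower in control processes, the former near the share of all genes, with Camk2a (2.55, adjusted p = 9.5e-07) among the former. PTX lowered Camk2a in somata (-1.13, adjusted p = 0.00305) and in processes (-1.45, adjusted p = 0.00165). Camk1g rose in somata (0.93, adjusted p = 0.027). The remaining genes were not called with PTX in either compartment.

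The synapsin genes hold other genes within them. In the RefSeq annotation Timp1 and LOC102555453 lie inside Syn1 and Timp4 inside Syn2, all on the opposite strand, and Timp3 lies inside Syn3. Araf overlaps Syn1 in part on the opposite strand (266 to 1016 reads per library), and Fbxo7 overlaps Syn3 in part (112 to 669). The libraries were made with a directional kit, but the strand setting of the counting is not given in the sources used here, so some reads of these pairs may not be told apart. None of Timp1, LOC102555453, Timp3, Timp4, Araf and Fbxo7 was called with PTX. With PTX in processes, Timp1 was at 1.01 (adjusted p = 0.0978) and LOC102555453 at 0.16 against -0.76 for Syn1, Timp4 at 0.37 against -0.57 for Syn2 and Timp3 at 0.21 against -0.43 for Syn3. In somata the values were 0.55 and -0.08 against -0.38, 0.10 against -0.24 and -0.14 against -0.36. With PTX, Araf was at 0.01 in processes and 0.19 in somata, and Fbxo7 at 0.24 and 0.10. The part of shared reads was not tested.

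The genes whose level followed that of Syn1, Sv2a, Syp or Syngr1, the founding gene of each family, most closely over the 8 libraries were ranked by Pearson's r of log2 CPM, as a description. For Syn1 they were AABR07028237.1 (0.994), Hectd4 (0.993) and Pdgfa (0.993). For Sv2a they were Cx3cl1 (0.997), Dhcr7 (0.996) and Kcnk1 (0.995), and for Syp they were Scg5 (0.994), Coro1a (0.994) and Pnpla3 (0.993). For Syngr1 the nearest was Fam193b (0.987). The points share compartment, treatment and library scaling, and what these values reflect was not tested.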

How the data were processed

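Ribosome-depleted RNA was sequenced from 8 libraries, with groups taken from the sample titles. The authors deposited 1 table of raw read counts per gene symbol and library, without normalization. Per the labels, the processing tools were STAR, featureCounts and edgeR with the Rnor 6.0 build, whereas the methods of the study describe the Subread aligner. Versions are not given here, as the sources differ. The count filter, over 20 reads in 2 or more libraries, left 14309 of 28909 symbols. TMM scaling, glmQLFit and glmQLFTest of edgeR 4.0.16 (R 4.3.3) were run on 4 conditions together, 4 contrasts and an interaction, with Benjamini-Hochberg adjustment over all tested genes and a threshold of 0.05. All adjusted p-values are from this test unless DESeq2 1.42.0 or edgeR's likelihood ratio test is named. Intervals are at the 95% level. The method was also run on simulated counts, drawn with the common dispersion for every gene and no offset between replicates. Part of the changes set there was not recovered, so a gene that was not called may still differ. The sources do not say what the replicate number stands for, so whether same-numbered libraries are true pairs is not known. Their deviations correlated at 0.274 to 0.54 over the 6 pairs of conditions. The block lowered the common dispersion from 0.0132 to 0.00459, in the same counts that it was then used to test.

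The members and the gene lists were chosen with earlier results of these data known. The genes named are all members, and from the lists those called in the comparison described. Nearest genes were named for 1 gene per family. Alternatives covered the test, the tool, the scaling, the count filter, the replicate block, the 4 libraries compared and each library left out. Library totals ranged from 12290890 to 18455662 reads.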

Additional observations from a re-analysis of the deposited data

Results flagged for a closer look

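The estimates of the PTX effect on Syngr3 had opposite signs in the compartments, and neither was called (adjusted p = 0.613 in somata and 0.212 in processes). Syngr3 was higher after PTX in both replicate-numbered pairs of somata libraries (log2 differences 0.32 and 0.06). It was lower in both pairs of processes libraries (-0.50 and -0.46). Syngr3 was flagged by a rule that looks for a difference between the compartments, so these signs reflect its selection and are not separate evidence. The share of all genes with such signs was not determined, and whether same-numbered libraries are true pairs is not known. The interaction term, processes minus somata, was -0.69 (standard error 0.238, unadjusted p = 0.0149, edgeR quasi-likelihood adjusted p = 1), so the difference did not pass the correction over 14309 genes, and it did not with the replicate block either (-0.67, adjusted p = 0.149). Without replicate 1 of PTX somata the somata value was -0.013.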

How the results depend on the processing

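Depth limits the values of Syn3 (34 to 65 reads) and Sv2c (42 to 115 reads) in the processes libraries. PTX in somata called 513 genes, 972 with the likelihood ratio test, 1141 without a filter, 2002 with the replicate block and 116 to 568 with a library left out, and 0 members, 1 without a filter (Sv2c) and 2 with the block (Syn1, Sv2c). PTX in processes called 535 genes, 949 with the likelihood ratio test, 1129 without a filter, 1601 with the block, 299 with only the 4 libraries compared and 97 to 481 with a library left out. Members called there were 1, then 2 with the likelihood ratio test, 2 with DESeq2, 2 without a filter, 4 with the block, 0 with the 4 libraries and 0 to 2 with a library left out. Scaling by library size alone called 13462 genes and all 9 members between compartments in control cultures (6823 and 5 with TMM) and 13499 and 9 in PTX cultures (7121 and 5), all 9 lower. With the nuclear reads as the scale, 1913 genes were higher and 7083 lower in control processes (3688 and 3135 with TMM) and 1932 and 7119 in PTX processes (3680 and 3441). The interaction called 0 genes, 4 with the likelihood ratio test, 4 with DESeq2, 10 without a filter and 15 with the block. The replicate block changed no call other than those given with the results.

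Directions turned as follows. With library size alone, Syngr1 in PTX somata was 0.018, and in control processes against somata Syn1 was -1.09, Syn2 -1.72 and Syn3 -1.76, and in PTX cultures Syn1 -1.47 and Syn3 -1.83. With nuclear reads, Syn2 was -0.36 and Syn3 -0.40 in control cultures, and Syn1 -0.10 and Syn3 -0.45 in PTX cultures. Upper quartile factors gave Syn2 -0.10 and Syn3 -0.14 in control and Syn3 -0.17 in PTX cultures. Syn3 was -0.0034 in control and -0.064 in PTX cultures with at least 10 reads in every library, and -0.015 in PTX cultures without a filter. Sv2a in PTX processes, -0.00, was 0.0082 with DESeq2, 0.0077 with RLE factors, 0.014 with nuclear reads, 0.0098 with the 4 libraries, 0.047 with library size alone, 0.0032 with upper quartile factors and 0.0040 with no filter. With a library left out, values that crossed 0 were Syngr1 (-0.18 to 0.065) and Syngr3 (-0.013 to 0.38) for PTX in somata; Sv2a (-0.19 to 0.16), Sv2c (-0.077 to 0.98), Synpr (-0.17 to 0.49) and Syngr1 (-0.37 to 0.089) for PTX in processes; Syn2 (-0.13 to 0.30) and Syn3 (-0.33 to 0.37) between compartments in control and Syn3 (-0.35 to 0.31) in PTX cultures; and Syn3 (-0.42 to 0.33), Sv2c (-0.78 to 0.43), Syp (-0.41 to 0.025), Synpr (-0.42 to 0.24) and Syngr1 (-0.32 to 0.14) for the interaction. None of these was called with TMM except Syn1 in control cultures. The cause was not tested.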
